A study of Mus musculus with 8 samples.

Results

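The regions described here are HA ChIP-seq peaks whose summits lay in the introns of very long genes in mouse embryonic stem cells (mESCs). A peak was included when its summit, the base with the highest signal, was inside a protein-coding gene of at least 300 kb in the GENCODE M21 annotation of mm10, outside every exon, more than 1 kb from every transcript start and not in a soft-masked (repeat) run of 5 kb or more. This rule used position only. It kept 5150 of the 70192 peaks on chromosomes 1 to 19, X and Y. There were 949 of 11010 peaks (8.62%) with the HA antibody C29F4 in DMSO, 3301 of 40813 (8.09%) with the HA antibody ab9110 in DMSO, 755 of 16323 (4.63%) with ab9110 in dTAG, and 145 of 2046 (7.09%) in dTAG input, which is chromatin sequenced without pulldown. The annotation held 567 such genes, and their eligible introns covered 299.9 Mb, or 11.3% of the assembled chromosomes. Peaks inside these genes that failed the rule lay in exons (36, 166, 131 and 13 in the same order of lists), near starts (26, 153, 94 and 7) or in long repeats (377, 523, 176 and 55).

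All cells were of the ESC line EHMT2-dTAG-mcherry on a BL6/129 hybrid background, in which the endogenous histone methyltransferase EHMT2 carries a degron, HA tags and a mCherry reporter. DMSO-treated cells therefore held tagged EHMT2, and dTAG-treated cells were exposed for 24 h to the degrader dTAG13. By the study's methods the cells were grown on feeder fibroblasts. The 8 samples were ChIP and input libraries, and their lists of called peaks are the data here. The C29F4 list came from 2 merged ChIP samples, and each ab9110 list came from 1 library. No difference between lists has a replicate check, and no p-value was computed. Intervals are exact 95% intervals for counting error only, and neighbouring or repeated sequences are not independent. C29F4 was used in DMSO only, so DMSO and dTAG are compared within ab9110. The study's methods describe the ab9110 ChIP as a separate experiment. They name 2 independent clones for the C29F4 ChIP and do not name the clone of the ab9110 libraries. In differences between the C29F4 and ab9110 lists, antibody, experiment, depth and any difference in clone therefore cannot be told apart. The dTAG library was the shallower of the pair, with a mean coverage of 58.2% of that of DMSO as reconstructed from the lists.

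EHMT2 (G9a) and its partner GLP place H3K9me1 and H3K9me2 on histone H3 and have no sequence-specific DNA-binding domain of their own. DNA-binding repressors are known to bring them to chromatin, among them REST, a zinc finger protein that binds RE1 elements and keeps neuronal genes silent outside neurons. Many of the longest mammalian genes encode neuronal adhesion molecules, receptors and ion channels, and most of their length is intron.

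The letters of the RE1 element were searched in these introns on both strands, as its 5′ part TTCAGCACC (called the half-site here) and its 3′ part GGACAG beginning 2 bases further on. An element was called complete when all letters of both parts matched and near-complete when 1 of the letters of GGACAG differed. Elements with a mismatch in the half-site were not counted as near-complete. The 200-base window around the summit held the half-site in 29 of 949 C29F4 peaks (3.06%, interval 2.06 to 4.36). The share was similar elsewhere in the C29F4 list, at 2.71% in introns of shorter genes, 2.67% between genes and 2.33% of all 11010 peaks. It was complete in 11 and near-complete in 8. Of the 11 complete elements, 10 are printed to show the kind of sequence that the comparison below counts. Capitals mark the half-site and the letters that match GGACAG (mm10, read in the direction of the element).
Rbfox3, chr11:118584946-118584975, minus strand: gggTTCAGCACCagGGACAGtaacaacaac
Grip1, chr10:119705529-119705558, plus strand: aacTTCAGCACCaaGGACAGcaccctgctc
Ntm, chr9:29146085-29146114, minus strand: gctTTCAGCACCacGGACAGaaacactctt
Rbfox1, chr16:7201992-7202021, minus strand: gtcTTCAGCACCgtGGACAGaaacacaaag
Hs3st4, chr7:124199101-124199130, minus strand: ctgTTCAGCACCatGGACAGaagaagctta
Lingo2, chr4:35885137-35885166, plus strand: cgtTTCAGCACCcaGGACAGcaaccatcag
Csmd2, chr4:128042811-128042840, plus strand: tgcTTCAGCACCatGGACAGgacaccagcc
Gm20388, chr8:121761673-121761702, minus strand: tccTTCAGCACCatGGACAGaacccttctc
Fgf14, chr14:124195513-124195542, plus strand: aggTTCAGCACCgcGGACAGtgacgctggc
Btbd9, chr17:30389872-30389901, plus strand: caaTTCAGCACCtaGGACAGttccccaaat

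The 5 near-complete elements with the highest C29F4 folds are shown for the same reason, and in them a lower-case letter between the capitals marks the mismatch.
Ephb1, chr9:102066733-102066762, plus strand: tctTTCAGCACCacGGcCAGcgccccactt
Cdh13, chr8:119258846-119258875, plus strand: actTTCAGCACCgtGGcCAGaggccggtac
Trappc9, chr15:72689974-72690003, minus strand: tgcTTCAGCACCacGGAgAGctctctgctg
Epha5, chr5:84166857-84166886, minus strand: ataTTCAGCACCatGGAtAGtcacagacta
Csmd1, chr8:16700626-16700655, plus strand: cccTTCAGCACCgcGGtCAGctccaggcct

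Several of the genes printed above are known from neurons. Rbfox1 and Rbfox3 (the latter also known as NeuN) regulate splicing in neurons, Grip1 is a scaffold for AMPA receptors, Ntm encodes the adhesion molecule neurotrimin, Fgf14 modulates voltage-gated sodium channels, and Csmd2 encodes a synaptic membrane protein. At the Rbfox3 element, the fold over background was 8.05 with C29F4 and 10.5 with ab9110 in DMSO, and no peak was called in dTAG or input. At Grip1 the fold was 6.25 with C29F4 and 4.18 with ab9110 in DMSO. At the Hs3st4 element it was 4.4 and 4.38, and at Fgf14 2.64 and 3.54. The strongest near-complete elements lay in Ephb1, an ephrin receptor (11.4 with C29F4 and 4.62 with ab9110 in DMSO), and in Cdh13, an atypical cadherin without a transmembrane domain (8.13 and 5.29). None of these 6 peaks overlapped a dTAG peak. At Ntm, Rbfox1, Lingo2, Csmd2 and the complete Btbd9 element, only C29F4 gave a peak, with folds from 2.59 at Btbd9 to 5.12 at Ntm, and at the near-complete element of the ephrin receptor gene Epha5 its fold was 5.61. By class, 6 of the 11 complete and 6 of the 8 near-complete elements had a DMSO peak and no dTAG peak, and the others had neither. Over the 949 C29F4 peaks, these classes took 44.9% and 43.1%, against 46.1% and 32.2% of all C29F4 peaks. The 29 peaks lay in 25 genes, of which Rbfox1 held 3 and Hs3st4 and Btbd9 2 each. Their median fold was 3.94, against 3.63 for the C29F4 peaks without the half-site. The element lay a median of 44 bases from the summit, and within 50 bases in 16 of 29. Only the window around the summit was searched, which limits how far away an element could be found. These distances were not compared with random placement in the window, so centring on the summit was not tested.

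Counted from the sequence rather than from the peaks, the eligible introns held 24 complete elements. A C29F4 peak covered 15 of them (62.5%, interval 40.6 to 81.2) and an ab9110 DMSO peak 12 (50%, 29.1 to 70.9). Together the DMSO lists covered 19 of 24 (79.2%). An ab9110 dTAG peak covered 0 of 24, which allows a share of up to 14.2%, and an input peak also 0. For the 35 near-complete elements a C29F4 peak covered 11, an ab9110 DMSO peak 10, a dTAG peak 1 and an input peak 0. The 2654 half-sites with neither form were covered in 18 cases by C29F4 (0.678%), in 43 by ab9110 DMSO (1.62%) and in 6 by ab9110 dTAG (0.226%). For scale, C29F4 peaks of the set cover 0.175% of the eligible bases, ab9110 DMSO peaks 0.547% and ab9110 dTAG peaks 0.117%. The elements were counted with every peak of a list. Peaks with summits outside the set could therefore cover an element but are not in this scale. Depth matters for the dTAG count. With the ab9110 DMSO fragments thinned to the dTAG coverage and threshold, 5.48 of the 12 complete and 5.10 of the 10 near-complete elements would be expected to stay covered, beside 0 and 1 observed in dTAG. For half-sites alone 18.2 of the 43 would be expected, beside 6 observed, so counts below the expected value were found for all 3 forms. The same held for the whole set. Of its 3301 ab9110 DMSO peaks, 34.3% would be expected to be kept after thinning, whereas 7.88% overlapped a dTAG peak. Over all ab9110 DMSO peaks these shares were 39.7% and 18.9%. The low dTAG counts are therefore not particular to RE1 elements. Thinning reuses the observed DMSO summits, so these expected values leave out how far a separate library would differ. C29F4, also in DMSO but a separate experiment, met 16.1% of the 3301 peaks. What part of the low counts is due to depletion was not tested.

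**Figure D1:**
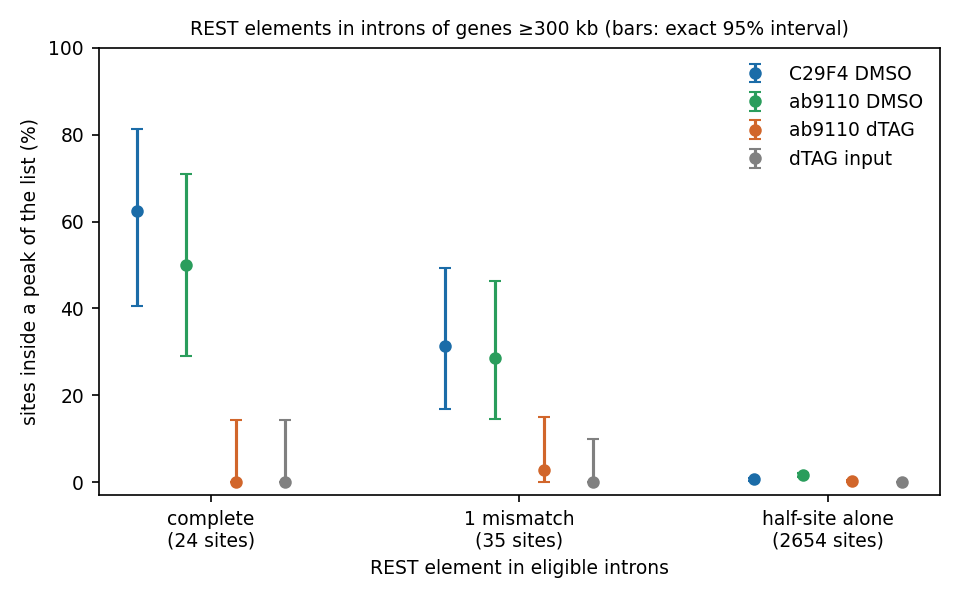
Share of RE1 elements in eligible introns that lay inside a peak (vertical axis, percent), for complete, near-complete (1 mismatch) and half-site-only elements, with 1 point per peak list and bars for exact 95% intervals. For the 24 complete elements, C29F4 DMSO is at 62.5%, ab9110 DMSO at 50%, and ab9110 dTAG and input at 0.

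The same elements were also covered outside very long genes. In introns of shorter genes 15 of 40 complete elements were in a C29F4 peak, 15 in an ab9110 DMSO peak and 1 in a dTAG peak. Between genes the counts were 30, 27 and 2 of 68. The interval for the C29F4 share in very long genes (40.6 to 81.2) overlaps those in shorter genes (22.7 to 54.2) and between genes (32.1 to 56.7). On a regular grid of 29606 windows placed every 10 kb along the eligible introns, 46 held the half-site (0.155%) and 0 held a complete or near-complete element. Among ab9110 peaks of the set, the half-site was in 30 of 3301 DMSO windows (0.909%), 6 of 755 dTAG windows (0.795%) and 0 of 145 input windows.

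After the sequences were read, a form without the first 2 letters of the half-site was also counted, which is therefore a choice made with the values in view. CAGCACC followed after 2 bases by GGACAG was in 27 of 949 C29F4 windows (2.85%, 1.88 to 4.11), 14 of 3301 ab9110 DMSO windows (0.424%), 0 of 755 dTAG windows (up to 0.487%), 0 of 145 input windows and 1 of 29606 grid windows. In introns of shorter genes it was in 30 of 1254 C29F4 windows (2.39%, 1.62 to 3.4) and between genes in 54 of 4527 (1.19%, 0.897 to 1.56). Of the 27, 18 had a DMSO peak and no dTAG peak, 0 had both and 9 had neither. These classes took 44.9%, 11.5% and 43.1% of the 949 peaks, and 46.1%, 20.8% and 32.2% of all C29F4 peaks. In 16 of the 27 the full half-site was absent. Examples in genes of axon guidance, channels, growth factor signalling and transcription, chosen after their values were seen, are shown with the matched letters in capitals. All were taken from the peaks with a DMSO peak and no dTAG peak.
Fam155a, chr8:9635434-9635463, minus strand: ccactCAGCACCatGGACAGtccaacgcac
Unc5d, chr8:28760592-28760621, plus strand: ggaatCAGCACCgtGGACAGaggcaatggt
Asic2, chr11:81006011-81006040, minus strand: ctggtCAGCACCatGGACAGtggcatctag
Fgfr2, chr7:131917561-131917590, plus strand: tctgtCAGCACCacGGACAGtgtccttgac
Camta1, chr4:151289372-151289401, plus strand: ctggcCAGCACCacGGACAGaggctgcctg
Unc5c, chr3:141811573-141811602, plus strand: tggatCAGCACCaaGGACAGagcaaaggga

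Fam155a, an auxiliary subunit of the sodium leak channel, had a fold of 9.0 with C29F4. The netrin receptor genes Unc5d and Unc5c had folds of 8.68 and 3.06. Asic2, an acid-sensing ion channel, had 6.94, the growth factor receptor gene Fgfr2 4.41 and the transcription factor gene Camta1 3.68. The Fgfr2 peak was assigned by an annotation of 2961 kb that spans other genes. These 6 peaks overlapped an ab9110 DMSO peak and no dTAG peak, whereas those in Sgcd (6.47), Grin2a (3.91), Adarb2 (3.41) and Dab1 (3.03), also among the 16, overlapped neither. The 45 C29F4 peaks with the half-site or this shorter form are 4.74% of the 949.

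The calls of the other lists at C29F4 peaks were counted next. Of the 949, 535 overlapped an ab9110 DMSO peak (56.4%, interval 53.2 to 59.6), against 67% of all C29F4 peaks. In 426 there was a DMSO peak and no dTAG peak (44.9%, against 46.1% of all, and 27.3% with DMSO thinned to the dTAG coverage). In 109 there was a peak in both (11.5%, against 20.8%), in 5 in dTAG alone (0.527%, against 0.817%), and in 409 in neither (43.1%, against 32.2%). A dTAG peak of either class met 114 (12%, against 21.7%), and input peaks met 2 (0.211%, against 0.981%). The class with DMSO and without dTAG thus took a share close to that of the whole list, while peaks called by C29F4 alone took 43.1%, against 37.8% both in introns of shorter genes and between genes. The RE1 half-site was then counted by class. It was in 19 of the 426 peaks with DMSO and no dTAG (4.46%, 2.71 to 6.88), in 0 of the 109 with both (up to 3.33%) and in 10 of the 409 with neither (2.44%, 1.18 to 4.45).

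**Figure D2:**
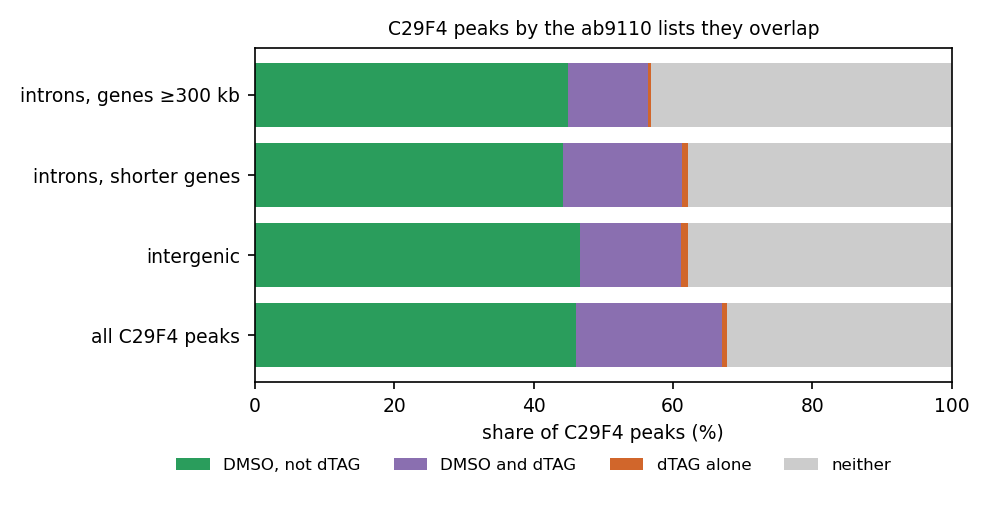
C29F4 peaks (horizontal axis, share in percent) divided by the ab9110 lists they overlap, for introns of genes of at least 300 kb, introns of shorter genes, intergenic positions and the whole list. Peaks in DMSO and not dTAG make up 44.9% in very long genes and 46.1% of all C29F4 peaks.

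Agreement between the C29F4 and ab9110 lists was highest among the strongest peaks. C29F4 peaks were ordered by fold and cut into 5 bins of like size. In the highest bin (folds from 4.73 upward), 148 of 190 overlapped an ab9110 DMSO peak (77.9%, 71.3 to 83.6). From the lowest fold upward, the other bins gave 56.3%, 44.2%, 49.7% and 53.7%, without a steady rise. The 535 overlapping peaks had a median fold of 3.8, 28 fragments at the summit and a GC content of 46%. The 414 others had 3.45, 19 fragments and 42.5%. Summits of overlapping peaks lay a median of 106 bp apart. From the other side, 530 of 3301 ab9110 DMSO peaks overlapped a C29F4 peak (16.1%, against 18.1% of all ab9110 DMSO peaks), and in the highest of 5 bins by fold 301 of 660 did (45.6%). In 260 they overlapped a dTAG peak (7.88%, 6.98 to 8.85, against 18.9%), a share that came to 16.1% with DMSO thinned to the dTAG coverage. In introns of shorter genes that share was 12.7% (11.9 to 13.5) and between genes 10.7% (10.3 to 11.2). For 2620 of the 3301 there was no peak in another ChIP list (79.4%, against 68.7%). They overlapped C29F4 without dTAG in 421 (12.8%, against 12.4%), C29F4 and dTAG in 109 (3.30%, against 5.73%), dTAG without C29F4 in 151 (4.57%, against 13.2%) and input in 14 (0.424%, against 0.625%). Among the 755 dTAG peaks, 264 had a partner in DMSO with the same antibody (35%, interval 31.6 to 38.5, against 46.8% of all dTAG peaks, and 58.7% or 79.0% with both lists held to a q-value under 0.01 or 0.001) and 113 in C29F4 (15%, against 14.8%). The C29F4 partner came with DMSO in 107 (14.2%, against 14.3%) and without it in 6 (0.795%, against 0.539%), and 157 had a partner in DMSO alone (20.8%, against 32.5%). No other ChIP list met 485 of them (64.2%, against 52.7%), and input met 3 (0.397%, against 0.643%).

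Individual peaks differed widely in strength. The median fold over background was 3.64 with C29F4, 3.28 with ab9110 in DMSO, 3.63 in dTAG and 4.55 in input, at median summit pileups of 23, 12, 8 and 9 fragments. Folds of different lists therefore rest on different numbers of fragments and were not compared with a test. Summit windows of strong peaks called in DMSO and dTAG, in DMSO and not dTAG, and in dTAG alone are printed because they show the sequence behind each class. All are on the plus strand of mm10, and none of the letters is in capitals except the matches to the listed motifs given further on.
Camta1, chr4:151604876-151605075, plus strand: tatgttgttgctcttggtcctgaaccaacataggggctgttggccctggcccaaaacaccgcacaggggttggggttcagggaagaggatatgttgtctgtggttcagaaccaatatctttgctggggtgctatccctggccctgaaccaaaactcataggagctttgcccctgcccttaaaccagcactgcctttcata
Myo16, chr8:10255821-10256020, plus strand: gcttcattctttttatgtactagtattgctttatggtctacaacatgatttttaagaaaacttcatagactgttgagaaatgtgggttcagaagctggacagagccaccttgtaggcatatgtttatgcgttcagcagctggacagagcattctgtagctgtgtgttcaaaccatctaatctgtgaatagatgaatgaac
Tiam1, chr16:89863247-89863446, plus strand: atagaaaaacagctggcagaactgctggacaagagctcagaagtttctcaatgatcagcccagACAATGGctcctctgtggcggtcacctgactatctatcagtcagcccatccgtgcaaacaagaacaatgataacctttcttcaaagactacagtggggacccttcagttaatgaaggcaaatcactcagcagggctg

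Of the 5 strongest C29F4 peaks with partners in both ab9110 ChIP lists, and with none in input, 4 are given here, in Camta1, Tenm3, Magi2 and Kcnb2. Camta1 encodes a calmodulin-binding transcription activator, and its peak rested on 521 fragments with C29F4, 160 with ab9110 in DMSO and 14 in dTAG. At Tenm3, a teneurin adhesion molecule, the fragments were 129, 67 and 13. At Magi2, a synaptic scaffold, they were 110, 63 and 14. At Kcnb2, a voltage-gated potassium channel, they were 64, 21 and 8. The folds with ab9110 were 21.2 in DMSO and 3.94 in dTAG at Camta1, 9.90 and 3.34 at Tenm3, 11.9 and 4.09 at Magi2, and 3.59 and 3.43 at Kcnb2. Soft-masked bases made up 86.7% of the Magi2 peak and 13.7% to 24.9% of the other peaks given here.

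Of the 10 strongest C29F4 peaks with a DMSO peak and no dTAG or input peak, 9 are given here. They were led by Myo16, an unconventional myosin, with folds of 14.2 for C29F4 and 3.06 for ab9110, and by Ephb1. Rasgef1b, a guanine nucleotide exchange factor, had 9.87 and 6.44. Adgrv1, an adhesion G protein-coupled receptor, had 9.61 and 4.93, and Pkhd1, which encodes fibrocystin, had 9.10 and 5.70. The peaks in Fam155a (9.0 and 9.66), Cdh12 (8.84 and 6.10) and Camkmt (8.69 and 4.21) also belonged to this class, together with Gm20388 (10.1 and 19.5), an annotation of 4435 kb that spans other genes. The Gm20388 peak lay inside such a nested gene. Soft-masked bases made up 62.2% of the Adgrv1 peak, 79.7% of Pkhd1, 68.2% of Cdh12 and 74.4% of Gm20388. In the others given here they made up 3.47% to 20.8%. A peak in a repeat can lie at another copy, because a multimapping read was assigned to 1 location. The strongest C29F4 peaks without any ab9110 ChIP peak were in Csmd3 (8.34, 39 fragments), the sodium-calcium exchanger gene Slc8a1 (7.76, 35) and Lrrtm4 (6.90, 31), a synaptic adhesion gene.

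Among the 5 dTAG peaks with the highest folds and no partner in another list, the fold was 5.21 in Dst (15 fragments), 4.81 in Nedd4l (10), 4.79 in Tiam1 (13) and 4.59 in Snd1 (11). Input peaks reached a fold of 19.2 with 47 fragments in Ppp2r2b, 10.6 with 22 in Pcca and 9.10 with 17 in Cdh18. Only the Pcca peak among the 5 strongest input peaks, which also included Shisa6 and Tmtc2, overlapped a ChIP peak, with an ab9110 DMSO fold of 1.79. Of all 145 input peaks, 2 overlapped C29F4 (1.38%, against 5.28% of all input peaks), 14 ab9110 DMSO (9.66%, against 12.6%) and 3 ab9110 dTAG (2.07%, against 5.08%), and 130 met no ChIP list (89.7%, against 84.7%).

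Peak density in these introns was below the rest of the assembled chromosomes in every list. That rest includes the exons, starts and long repeats that the rule leaves out here. With the same positions left out, the ratio was also under 1 in shorter genes and between genes in every list. For C29F4 it was 0.489 and 0.737 there, and for ab9110 dTAG 0.553 and 0.358. A ratio under 1 is therefore not particular to very long genes. C29F4 gave 3.16 peaks per Mb (interval 2.97 to 3.37), which is 0.738 times its density elsewhere. With ab9110 it was 11 per Mb in DMSO (10.6 to 11.4, ratio 0.689) and 2.52 in dTAG (2.34 to 2.7, ratio 0.380), and in input it was 0.484 (0.408 to 0.569, ratio 0.597). Compared with introns of shorter genes, the order differed by list. C29F4 was denser in very long genes (3.16 against 2.27), and the ab9110 lists were sparser (11 against 12 in DMSO, 2.52 against 3.76 in dTAG). Between genes the densities were 3.51, 13.2 and 3.21. Intervals do not overlap for any of these pairs. With ab9110 DMSO thinned to the dTAG coverage, 1133 of its peaks would be expected to remain, beside 755 in dTAG. The corresponding values were 2317 and 2072 in shorter genes, 6249 and 4138 between genes, and 16218 and 16323 over the whole lists.

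**Figure D3:**
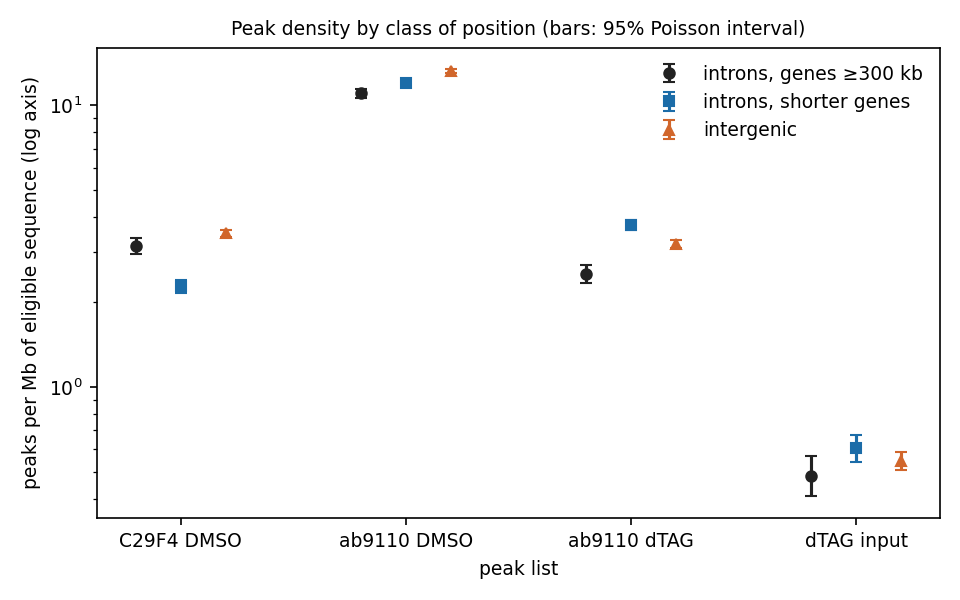
Peaks per Mb of eligible sequence (vertical log axis) in each list, for introns of genes of at least 300 kb, introns of shorter genes and intergenic positions, with 95% Poisson intervals as bars. C29F4 stands at 3.16 in very long genes and 2.27 in shorter genes, and ab9110 dTAG at 2.52 and 3.76.

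C29F4 peaks were spread over many genes. They lay in 398 of the 567, ab9110 DMSO peaks in 529 and ab9110 dTAG peaks in 379. All 3 ChIP lists had a peak in 292 genes, and 27 had none in either DMSO list. The 10 genes with the most C29F4 peaks held 9.69% of them on 4.26% of the eligible bases. The count for C29F4, ab9110 DMSO and ab9110 dTAG was 11, 27 and 7 in Etl4, 10, 24 and 6 in the splicing regulator Rbfox1, and 10, 14 and 4 in Macrod2, which lies at a common fragile site. It was 9, 29 and 7 in Fgfr2, a long annotation of 2961 kb that spans other genes. Csmd1 (9, 22 and 7), the contactin gene Cntn5 (9, 18 and 4), Cdh13 (8, 23 and 3) and Dpp6 (8, 18 and 4), an auxiliary subunit of potassium channels, followed. A DMSO peak and no dTAG peak was found at 6 of the 11 C29F4 peaks in Etl4, 6 of 10 in Rbfox1 and 6 of 10 in Macrod2.

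**Figure D4:**
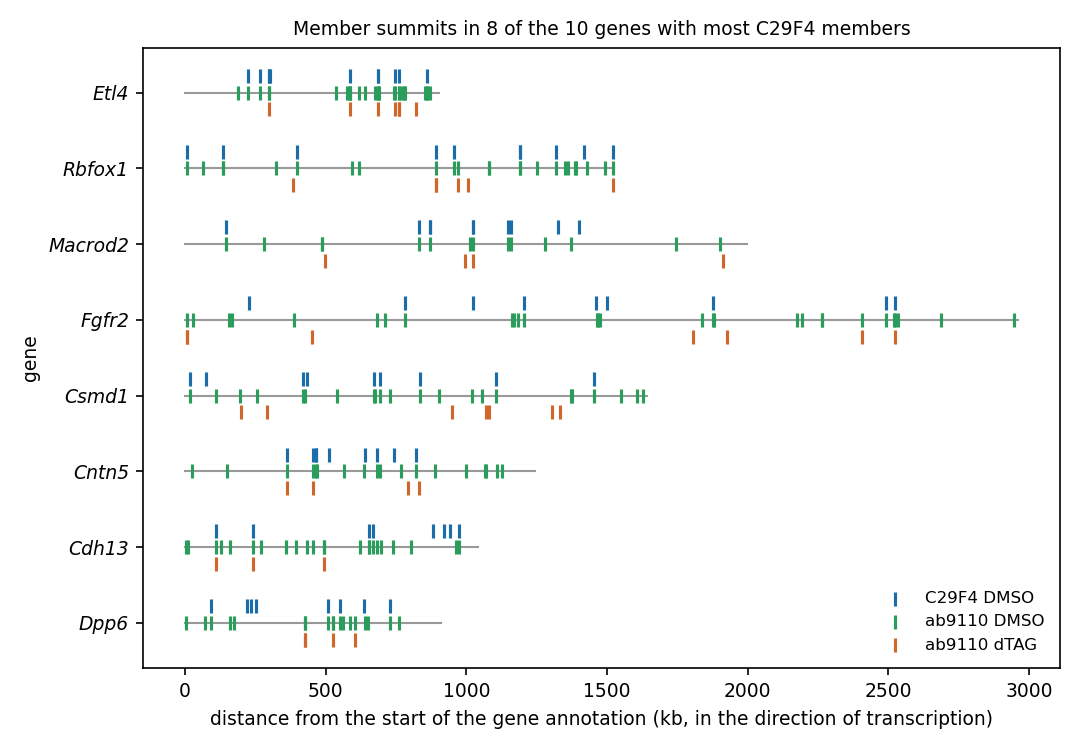
Positions of peak summits in 8 of the 10 genes with the most C29F4 peaks, as distance from the start of the gene annotation (horizontal axis, kb, in the direction of transcription), with 1 row of ticks per ChIP list. Peaks lie along the whole length of the genes, as for the 11 C29F4 and 27 ab9110 DMSO peaks of Etl4.

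Per Mb of eligible intron, the densest genes with at least 5 C29F4 peaks included Ccdc7a (20.8 per Mb), Tmem178b (17.5), Iqcm (16.1) and the potassium channel gene Kcnt2 (14.5). The most dTAG peaks were in Gm20388 (15, beside 53 in ab9110 DMSO, 4 in C29F4 and 7 in input). The longest genes without a peak in either DMSO list included the X-linked adhesion genes Il1rapl1 (1375 kb) and Pcdh11x (620.4 kb) and the potassium channel gene Kcnd2 (514.3 kb), and also Gm42416 and Gm37013. Genes just inside the length limit held 2 C29F4 and 4 ab9110 DMSO peaks in Kcnq3 (300.3 kb) and 0 and 4 in Pam (300.5 kb). Just outside, they were 1 and 3 in Jazf1 (299.8 kb) and 0 and 4 in Akap13 (299.1 kb). With each gene cut into 5 stretches of equal length, the stretches from the start to the end held 18.1%, 22.7%, 18.2%, 21.6% and 19.4% of C29F4 peaks, beside 19.3% to 20.3% of the eligible bases each.

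The genes were also described by 8 lists of functional groups, with density in C29F4, ab9110 DMSO and ab9110 dTAG as peaks per Mb of the group's introns. Over all 567 genes these densities were 3.14, 10.9 and 2.50. Synaptic adhesion genes (37 genes such as Csmd1, Cntn5 and Lingo2) had the lowest values for C29F4 and for both ab9110 lists, at 2.41, 7.56 and 1.38, on introns with a median GC content of 38.3%. Their ab9110 DMSO peaks overlapped a dTAG peak in 8 of 263 (3.04%, 1.32 to 5.91), against 7.88% over all 567 genes and 18.9% of all ab9110 DMSO peaks. That share was 2.94% (0.358 to 10.2) for axon guidance genes and from 6.03% to 9.86% for the other 6 groups. Cadherins, protocadherins and catenins (14 genes) had 2.79, 10.4 and 1.80, and axon guidance genes (17, such as Ephb1 and Unc5d) 3.23, 8.14 and 1.92. Ion channels and neurotransmitter receptors (40 genes, such as Grin2a and Kcnt2) had 3.58, 9.94 and 2.40. Transcription factors and chromatin regulators (37 genes, such as Camta1) had 3.15, 12.2 and 3.09. The 7 RNA-binding protein genes had 3.38, 14.1 and 3.57, the 32 signalling enzymes, scaffolds and growth factors 3.36, 11.4 and 2.47, and the 10 common fragile site genes 2.94, 9.45 and 1.70. The 373 genes in no list had 3.23, 11.7 and 2.78. The share of C29F4 peaks with a DMSO peak and no dTAG peak ran from 38.2% (27.2 to 50.0) for ion channels to 58.8% (32.9 to 81.6) for RNA-binding proteins, and all these intervals overlap.

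GC content moved with density and with the lists. Ordered by the GC content of their introns, and cut into 5 bins, the genes with the lowest values had 2.06 C29F4 and 6.74 ab9110 DMSO peaks per Mb, the middle bin 3.84 and 12.1, and the highest 3.24 and 14.1. At the summits, the median GC content of the 200-base window was 44.5% with C29F4, 47% with ab9110 in DMSO, 45% in dTAG and 46% in input, against 40.5% on the grid. Windows under 35% GC made up 22.8% of the grid, 4.95% of C29F4 peaks and 2.12% of ab9110 DMSO peaks. Windows of input peaks were shifted in the same direction. Soft-masked bases made up 30.3%, 31.8%, 31.7% and 44.5% of peak bases, beside 27.1% of the eligible introns.

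**Figure D5:**
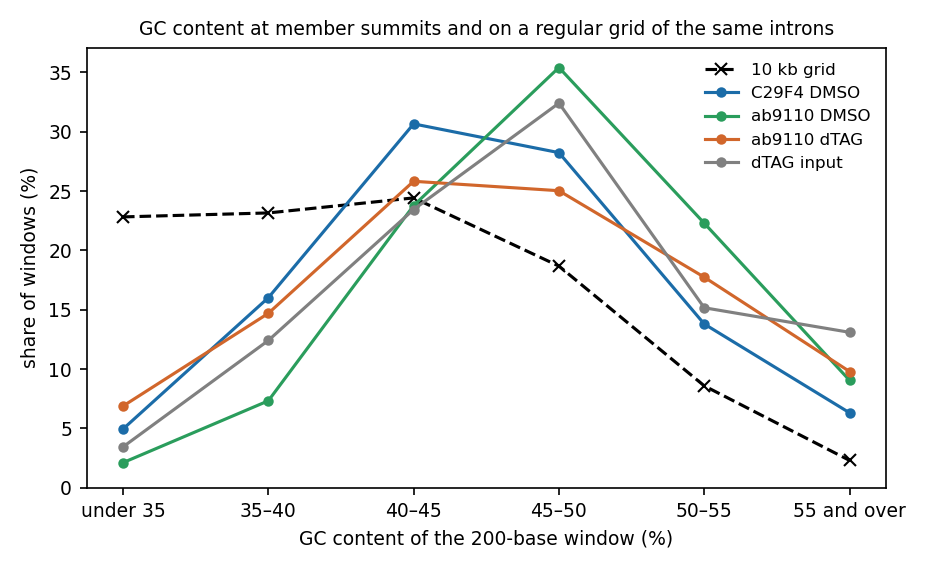
Distribution of GC content of 200-base windows (horizontal axis, percent, in bins) as the share of windows (vertical axis, percent), for summits of the 4 lists and for a 10 kb grid of the same introns. Windows under 35% GC are 22.8% of the grid and 4.95% of C29F4 peaks.

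Motifs of transcription factors that act in mESCs were counted in the same windows on both strands, beside the grid reweighted to the GC content of the peaks. The orphan receptor motif of ESRRB, TCAAGGTCA, was in 2.11% of C29F4, 1.76% of ab9110 DMSO and 1.85% of ab9110 dTAG windows, and 0.373% of the grid at the GC content of C29F4 peaks. The POU octamer ATGCAAAT, bound by OCT4, was in 3.69% of C29F4 windows and 1.38% of that grid, and the SOX motif ACAATGG in 7.38% and 3.30%. The latter motifs were in 2.52% and 6.62% of dTAG windows. In input windows the SOX motif was in 6.21% (2.88 to 11.5), beside 3.10% of the grid at their GC content. Its share above the grid is therefore not particular to the ChIP lists. The octamer was in 0.690% of input windows (up to 3.78%) and the ESRRB motif in 0% (up to 2.51%). Shares elsewhere in the C29F4 list were 2.55% in introns of shorter genes and 2.08% between genes for ESRRB, 2.15% and 2.98% for the octamer, and 6.62% and 6.98% for SOX. A complete RE1 element was in 5 of 3301 ab9110 DMSO windows (0.151%) and 0 of 755 dTAG windows (up to 0.487%), which does not separate the conditions at this depth. The GATA motif AGATAA (11.7% and 11.4%) and the KLF motif GGGNGTGG (5.48% and 5.45%) were near the grid for C29F4. The E-box CACGTG was in 1.26% and 2.31%, the AP-1 motif TGANTCA in 8.11% and 6.04%, and the CTCF core in 0.632% and 0.339%. The RE1 half-site, at 3.06% and 0.185%, had the largest ratio of the 9 motifs for C29F4 (16.5), while in ab9110 the ESRRB motif had it, at 4.4 in DMSO and 5.1 in dTAG beside 4.11 and 4.08 for the half-site. A window in Ncam2, a neural adhesion gene, holds the KLF and POU motifs, and a second Camta1 window holds the ESRRB motif, both in capitals. They are printed as the strongest C29F4 peaks with these motifs.
Ncam2, chr16:81480978-81481177, plus strand: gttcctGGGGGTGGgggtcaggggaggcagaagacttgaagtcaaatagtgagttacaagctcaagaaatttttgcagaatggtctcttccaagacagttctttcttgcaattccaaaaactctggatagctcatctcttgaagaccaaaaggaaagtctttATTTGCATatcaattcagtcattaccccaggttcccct
Camta1, chr4:151185926-151186125, plus strand: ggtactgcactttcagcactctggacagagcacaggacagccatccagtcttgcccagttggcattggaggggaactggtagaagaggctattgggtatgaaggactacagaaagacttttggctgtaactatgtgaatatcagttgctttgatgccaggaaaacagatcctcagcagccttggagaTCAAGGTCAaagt

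The Ncam2 peak had folds of 7.84 with C29F4, 9.66 with ab9110 in DMSO and 4.04 in dTAG. The second Camta1 peak had 7.92 and 4.08 and was not called in dTAG. Its window also holds the letters of the RE1 element with 1 mismatch, in the last letter of the half-site. That form was not counted and is not in capitals.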

How the data were processed

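HA ChIP and input libraries of EHMT2-dTAG mESCs were assigned to groups from the labels, by HA antibody, treatment and pulldown or input. The authors aligned reads to mm10 with STAR 2.7.10, assigning a multimapping read to 1 location, removed duplicates with Picard 2.26.0 and called peaks with MACS2 2.2.6 at a q-value under 0.05 (SAMtools 1.14, bedtools 2.30.0 and deepTools 3.5.1 are also in the submitters' processing notes). A peak in a repeat can therefore lie at another copy, and use of a control library in the calls is not given in the sources used here. C29F4 replicates were merged by the authors, and the C29F4 inputs and the ab9110 DMSO input were not analysed here.

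The deposited fold is the ratio of pileup to background at the summit. The deposited −log10 p-value and −log10 q-value belong to the summit, and the deposited score restates one of them. Score was not used. The fold and the Poisson p-value together gave the fragments at a summit. The lowest background was taken as the mean coverage, which was 3.64 with C29F4, 2.11 with ab9110 in DMSO, 1.23 in dTAG and 0.978 in input. Thinning of ab9110 DMSO summits to 58.2% used the expected binomial share that kept a −log10 p of at least 4.28, the lowest in the dTAG list.

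Genes and exons came from GENCODE M21, and sequence and soft-masking from the RefSeq copy of GRCm38, the assembly of mm10, which does not name repeat families. Overlap meant at least 1 bp. Shares have exact Clopper-Pearson 95% intervals, and densities have Poisson intervals. Scripts ran in Python 3.11.15 with numpy 2.4.6, pandas 2.3.3, scipy 1.17.1 and matplotlib 3.10.9, and overlap calls were tested on simulated data against bedtools 2.31.1. The genes with the most C29F4 peaks (10), the highest density (5), the most dTAG peaks (5) and no DMSO peak (5) were named, as were the strongest peaks of each class of calls (10, 5, 3, 5 and 5) and the strongest peak holding each motif. Some genes and sequences that these rules named are not reported here. RE1 elements were chosen for printing after their values were seen. The members, the gene lists and the motifs were chosen with earlier results of these data known, and the shortened RE1 form after the sequences were read. Alternatives covered the threshold, the overlap, the depth, the length limit, the distance to a start, long repeats, input peaks and the annotation Gm20388.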

Additional observations from a re-analysis of the deposited data

How the results depend on the processing

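No paired analysis was possible because each condition was represented by 1 list and the results come from no test. Over 11 alternatives, 240 values were recomputed. Of these 186 moved by less than the counting interval or 1.5 times, and 54 moved further. Only the density ratio has a direction, and it stayed under 1 in every list and alternative it was computed for. The rest of the chromosomes always included the exons, starts and long repeats that the rule leaves out, which limits what this direction shows. The cause of the moves was not tested except where the alternative leaves out peaks. Motif shares were recomputed for C29F4, and for the RE1 half-site also for ab9110, and gene groups for C29F4. At a q-value under 0.01, there were 1686 ab9110 DMSO, 288 dTAG and 38 input peaks, density relative to the rest was 0.594 for DMSO and 0.236 for dTAG, GC content was 47% for dTAG and the soft-masked share 55.7% for input. C29F4 peaks overlapped a DMSO peak in 50.1% and a DMSO peak and no dTAG peak in 41.3%, DMSO peaks overlapped dTAG in 9.85% and dTAG peaks DMSO in 58.7%. Under 0.001 the numbers were 905, 124 and 15, the densities 0.513 and 0.166, the GC content 48% for DMSO and 48.5% for dTAG, and the first of the 5 stretches of the gene held 16.1% of dTAG peaks. The overlaps were then 44.6%, 38.6%, 10.5% and 79.0%, those with input 0% for C29F4, 0.221% for DMSO and 1.61% for dTAG, and the half-site was in 1.33% of DMSO and 0% of dTAG windows. Where 50% of the counted peak had to be shared, the first 3 overlaps were 47.7%, 40.6% and 4.88%, and those with input 0% for C29F4 and 0.212% for DMSO. With summits at most 250 bp apart the 4 overlaps were 44.8%, 36.9%, 6.76% and 29.7%. With DMSO thinned to the dTAG coverage, 1133 DMSO peaks remained and the overlaps were 37.1%, 27.3%, 16.1% and 25.1%. In genes of at least 500 kb there were 581, 1956, 434 and 89 peaks, and the soft-masked share for DMSO was 33.4%. With long repeats kept, the soft-masked shares were 56.2%, 45.1%, 48.2% and 59.4%, C29F4 overlapped DMSO in 64.3%, DMSO overlapped dTAG in 10.8% and dTAG DMSO in 44.9%. No value moved with genes of at least 200 kb (35 values), with summits more than 5 kb from a start (12), without peaks at input (16) or, chosen after seeing the data, without Gm20388 (19). Low fragment numbers limit the ab9110 lists most, with a median of 8 at dTAG summits.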

Other observations

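Very long genes on the X chromosome held few peaks. C29F4 gave 11 peaks there, or 0.735 per Mb of eligible intron, beside 3.29 per Mb on the autosomes. For ab9110 DMSO the densities were 2.61 and 11.4, for ab9110 dTAG 0.401 and 2.63, and for input 0.267 and 0.495. The ratio of X to autosomes was thus 0.223, 0.228, 0.153 and 0.540 in the same order. It was also low in introns of shorter genes, at 0.420, 0.289, 0.263 and 0.481. Between genes it was 0.298, 0.278, 0.284 and 0.494. The number of X chromosomes in these cells is not in the labels, and its part in these values was not tested.

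Some summit windows shared sequence with other members. An exact run of 30 bases was shared by 113 of 949 C29F4 windows (11.9%), 505 of 3301 ab9110 DMSO windows (15.3%), 94 of 755 dTAG windows (12.5%) and 28 of 145 input windows (19.3%). The C29F4 windows fell into 25 families. The first had 23 windows in 21 genes, among them Magi2, Adgrv1, Pkhd1 and Cntnap2, with a median GC content of 65% and C29F4 folds from 2.24 to 12.8. Of the 23, 17 overlapped a DMSO peak and no dTAG peak, 6 overlapped both, and 0 overlapped neither. The second had 16 windows in 16 genes, among them Cdh12 and Rims2, of which 11 overlapped DMSO and not dTAG, 3 both and 2 neither. Multimapping reads were assigned to 1 location, so members of a family may share reads. The commonest runs of the first family (in 10 windows) and of the second (in 5) are shown.
first family: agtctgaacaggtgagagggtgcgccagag
second family: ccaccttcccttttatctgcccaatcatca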
